A study of Mus musculus with 36 samples.

Results

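The Myh11 and Mylk loci of mouse chromosome 16 are described here by their accessible chromatin. Every region of the deposited mm9 count table that overlaps chr16:14170000-14320000 (Myh11) or chr16:34720000-35030000 (Mylk) was taken. In these windows the Myh11 gene spans about 14194600-14291500 and the Mylk gene about 34745300-35002500. The windows held 532 regions, 177 at Myh11 and 355 at Mylk, of 1393120 in the table. Of them, 30 at Myh11 and 53 at Mylk passed the filter on low counts and could be tested, against 144810 in all. The tested regions held 85.0% of the Myh11 and 79.5% of the Mylk counts. Regions left out were narrow and sparse, with at most 108 counts at Myh11 and 123 at Mylk over all libraries together.

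Myh11 encodes the heavy chain of smooth muscle myosin, the motor protein of contraction in vessel and gut walls, and is a standard marker of differentiated smooth muscle. Mylk encodes myosin light chain kinase, which is activated by calcium and calmodulin and phosphorylates the regulatory light chain of that myosin to start contraction. Mylk has several promoters. Its long product is also made in non-muscle cells, and the short one is typical of smooth muscle. Heart muscle, towards which the cells studied were driven, contracts with other myosin heavy chains.

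The cells grew out of explants of neonatal hearts. The mice were of the CD-1 strain and carried alpha-MHC-GFP, a green reporter under a cardiac myosin promoter. Cells positive for Thy1 and negative for the reporter, a mostly fibroblast population, were sorted. The heart development factors Gata4, Mef2c and Tbx5 (GMT) were delivered by retrovirus, and these cells also received sb431542 and xav939, which block TGF-beta and Wnt signalling. GFP-positive cells were harvested at days 2, 3, 7, 14 and 21. Control cells of the same genotype received a dsRed retrovirus and no inhibitor, and dsRed-positive cells were taken at day 7. Each group had 3 libraries, which the labels call biological replicates, 18 in all. Factors, inhibitors and the sorted marker thus change together in each comparison with fibroblasts, along with time in culture in all except that at day 7. All 5 comparisons use the same 3 control libraries. In a sorted bulk population, more cells with an open region and a more open region per cell cannot be told apart. The labelled cell types could not be checked against other marker genes, because no gene annotation of build mm9 was used here.

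The accessible DNA was read by ATAC-seq, which uses a transposase to cut and tag open chromatin. Library totals ran from 2.29 to 23.2 M counts, and 1 region of chromosome 1 (24618407-24622986) took 4.52 to 49.4% of them. Levels are therefore counts per 1 M counts (CPM) on effective library sizes from trimmed means of log ratios (TMM). A region was called when its adjusted p was under 0.05 in edgeR's quasi-likelihood test over all tested regions. Fibroblast replicates 1 and 2 were the closest pair of libraries, with a chi-square per degree of freedom of 1.34 against 2.01 for the next closest pair, and their TMM factors of 0.632 and 0.638 lay below that of replicate 3, 1.19.

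The only Mylk promoter in the RefSeq table (build GRCm38.p6) lies on the plus strand at chr16:34784700-34784999, and the table had no Myh11 entry. It is shown as the promoter sequence at hand for this pair of genes. Its position is in another build than the counts and was not placed among the mm9 regions, so it is not shown to belong to the Mylk start region described below. Read without conversion between builds, its coordinates lie inside chr16:34784276-34785526, a region called lower below. Which mm9 region holds this promoter was not determined. The capitals mark an AP-1 motif (TGANTCA, either strand) at bases 187 to 193, a motif that was chosen after the sequence was seen. The same motif occurs in 7.81% of 32851 promoters of this length.
Mylk promoter: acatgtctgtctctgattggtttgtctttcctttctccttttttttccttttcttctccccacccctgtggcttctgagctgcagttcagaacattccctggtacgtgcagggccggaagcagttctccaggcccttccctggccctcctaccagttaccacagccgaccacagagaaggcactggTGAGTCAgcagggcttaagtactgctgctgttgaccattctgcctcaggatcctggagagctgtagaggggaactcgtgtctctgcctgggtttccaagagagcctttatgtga
No match was found for a GATA motif (AGATAA), a T-box motif (AGGTGT), the MEF2 box or the CArG box on either strand. These occur in 11.2%, 13.7%, 0.557% and 1.63% of the promoters. The CArG box is the binding element of serum response factor in smooth muscle genes, and the first 3 are elements of the delivered factors' families.

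The summed accessibility of the Myh11 window was higher in GMT cells than in fibroblasts, whereas at the Mylk window a difference was not detected with TMM scaling and was with library totals. Fibroblast replicates 1 to 3 gave 140.2, 148 and 143 CPM over all 177 Myh11 regions. The GMT libraries gave 175, 172 and 174 CPM at day 2, 180.1, 200.4 and 190.3 at day 3, and 235, 212 and 221 at day 7. They gave 202, 186 and 159 CPM at day 14 and 207, 176 and 212 at day 21. All 15 GMT libraries lay above all 3 fibroblast libraries. The mean log2 difference was 0.42 (exact permutation test, two-sided, n = 15 against 3, p = 0.001225, the smallest p that the 816 splits allow). Over regions that overlap the gene itself it was 0.29 (exact p = 0.02328), and with library totals in place of TMM it was 0.85 (exact p = 0.003676). The GMT times hold different ages, so this single comparison does not say at which time the levels differ.

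Part of the higher Myh11 sum lay outside the gene, and at day 2 nearly all of it. The day 2 mean over that of fibroblasts was 1.45 outside the gene and 1.01 over the gene. These ratios were 1.53 and 1.16 at day 3, 1.76 and 1.38 at day 7, 1.26 and 1.28 at day 14, and 1.43 and 1.34 at day 21. Regions before and after the gene summed to 63.9 ± 4.19 CPM in fibroblasts and to 92.8 ± 8.82 at day 2, 98.1 ± 5.26 at day 3, 113 ± 9.75 at day 7, 80.4 ± 18.01 at day 14 and 91.7 ± 10.8 at day 21 (SD, n = 3). By the order of genes in RefSeq, the next genes are Nde1, a centrosomal and dynein-binding protein, on the lower side and Cep20, a protein of the centrosome, on the upper side. Where these neighbours begin and end in mm9 was not determined, so the flanks of the Myh11 gene may hold parts of them. Regions overlapping the gene summed to 79.8 ± 0.660 CPM in fibroblasts and 80.8 ± 7.66 at day 2, which overlap, and to 92.2 ± 5.08, 110.2 ± 7.50, 102 ± 3.94 and 107 ± 11.4 at days 3, 7, 14 and 21. From day 3 on, every GMT library was above every fibroblast library in the gene sum.

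At Mylk, the 355 regions summed to 248 ± 15.3 CPM in fibroblasts, 241 ± 35.8 at day 2, 231 ± 49.2 at day 3, 272 ± 15.02 at day 7, 265 ± 29.6 at day 14 and 294 ± 33.2 at day 21 (SD, n = 3). In order of level, day 3 was lowest and day 21 highest, and neighbours in that order overlapped. The lowest sums were those of replicate 1 of days 2 and 3, 205 and 178 CPM. The log2 difference over all GMT libraries was 0.05 (exact permutation test, two-sided, n = 15 against 3, p = 0.6752). With library totals in place of TMM it was 0.48 (exact p = 0.02696), and over gene regions alone it was -0.021 (exact p = 0.8713).

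**Figure D1:**
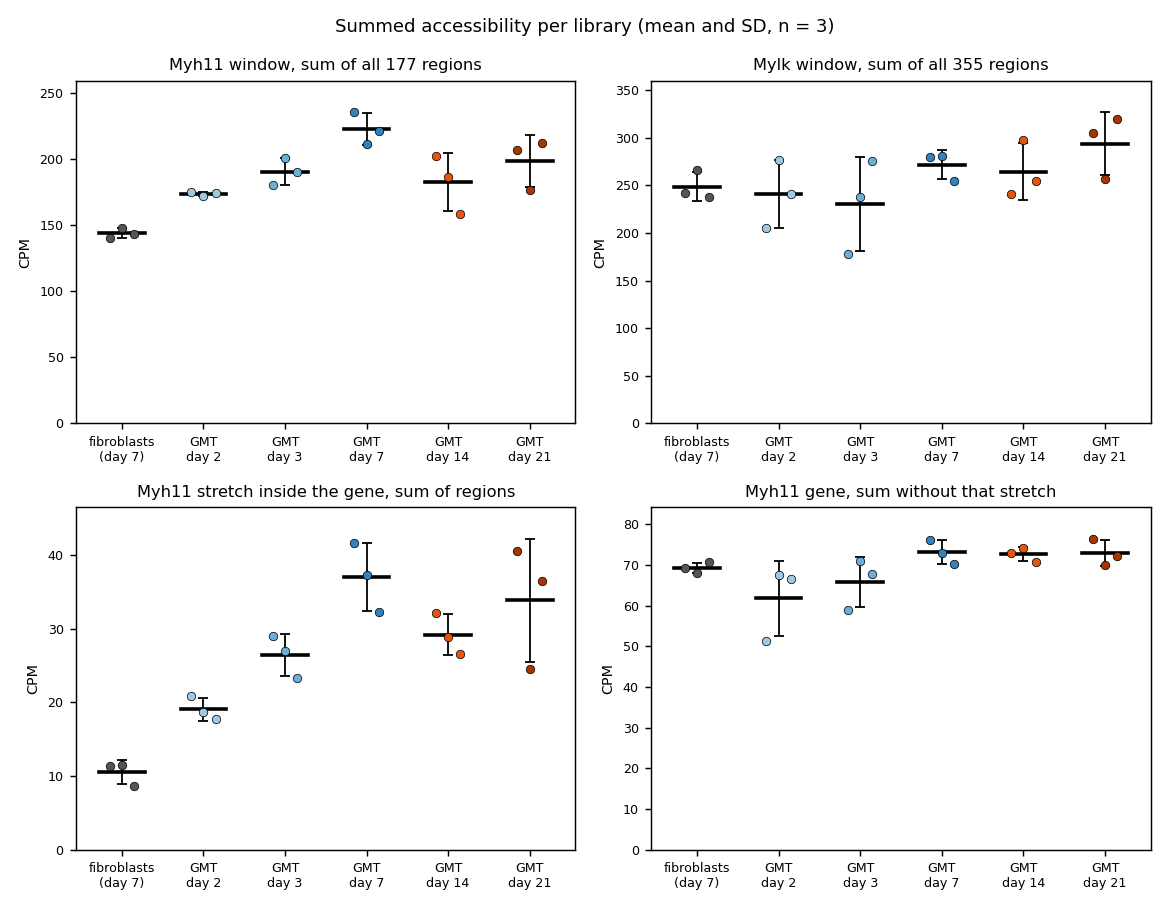
Summed accessibility (CPM, y axis) per library for the Myh11 window, the Mylk window, a stretch inside Myh11 and the rest of the Myh11 gene, by group on the x axis. Points are libraries, thick lines means and bars SD (n = 3). All 15 GMT libraries lie above the fibroblasts at the Myh11 window and in the stretch, and the groups overlap at the Mylk window.

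Among the 30 tested Myh11 regions, calls were mostly rises. At day 2, 6 rose and 1 fell, against 12.2% and 8.09% of all tested regions called higher and lower. At day 3, 6 rose and 2 fell (13.2% and 8.84% of all). At day 7, 10 rose and 1 fell (15.5% and 12.0% of all), which is 33.3% of the Myh11 regions called higher. At day 14, 5 rose and 2 fell (12.8% and 9.70% of all), and at day 21, 8 rose and 1 fell (13.3% and 10.1% of all). The higher share was above that of all regions at each time, least so at day 14, where it was 16.7%. The median log2 fold change over the 30 regions was 0.06, 0.33, 0.50, 0.36 and 0.54 at days 2, 3, 7, 14 and 21, against values from -0.01 to 0.07 over all tested regions.

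These counts depend on the controls and on scaling. Without fibroblast replicate 1, the called Myh11 regions numbered 3, 4, 7 and 4 at days 2, 3, 7 and 14, and without day 2 replicate 2 or 3 they numbered 4 at day 2. With library totals in place of TMM, the median of all regions moved up by 0.30 (day 7) to 0.63 (day 2) on the log2 scale, and calls over both loci were 20 of 20, 17 of 18, 18 of 20, 17 of 20 and 25 of 27 higher at days 2, 3, 7, 14 and 21. With TMM they were 10 of 15, 10 of 17, 16 of 24, 10 of 19 and 16 of 23.

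Of the 30 Myh11 regions, 3 were higher and 1 lower at all 5 times, 17 were never called, and none was called in both directions. Of all tested regions, 7.12% were higher and 4.55% lower at all 5 times and 61.7% never called, so a count of 3 of 30 is close to the background. By position, 7 of the 21 gene body regions rose at some time and 2 fell, 2 of the 5 before the gene and 2 of the 3 after it rose, and the single gene start region was not called. In all, 11 of the 30 rose and 2 fell at some time, against 21.1% and 17.1% of all tested regions.

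The Myh11 start region (chr16:14290441-14293883, centre at -0.662 kb from the start) was open in fibroblasts. Its levels there were 14.7, 12.7 and 11.2 CPM. GMT cells gave 4.16, 11.8 and 12.0 CPM at day 2, 5.01, 15.9 and 13.3 at day 3, 13.7, 14.6 and 19.3 at day 7, 15.7, 15.5 and 11.2 at day 14, and 15.5, 13.8 and 14.4 at day 21. The GMT libraries overlapped the fibroblasts at all times, and replicate 1 of days 2 and 3 lay far below the rest. Log2 fold changes ran from -0.42 ± 0.32 at day 2 to 0.28 ± 0.31 at day 7 (SE), with edgeR adjusted p of 0.388 and 0.528, and no time was called. A change at the Myh11 start was thus not detected with these libraries.

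Inside the gene, accessibility was higher over a stretch of 14879 bases (chr16:14252087-14266966), 24.5 to 39.4 kb from the start. It was picked after its values were seen, so its sum is given without a test. The stretch holds 14 regions, of which 7 were tested and 5 were called higher at 3 or more times. Fibroblasts gave 11.4, 11.6 and 8.65 CPM. GMT cells gave 20.8, 18.6 and 17.7 CPM at day 2, 29.0, 26.9 and 23.4 at day 3, 41.6, 37.2 and 32.3 at day 7, 32.1, 28.9 and 26.6 at day 14, and 40.6, 24.5 and 36.5 at day 21. Every GMT library was above every fibroblast library, and its mean over that of fibroblasts was 1.81 (day 2), 3.52 (day 7) and 3.21 (day 21). The rest of the gene gave 69.3 ± 1.31 CPM in fibroblasts and between 61.7 ± 9.13 (day 2) and 73.1 ± 2.87 (day 7) in GMT cells (SD, n = 3). The stretch was bounded by regions called higher at 3 or more times, so its contrast with the rest partly follows from that choice. Gene body regions far from the start were not allowed to bound it. This left out chr16:14193825-14196180 at 96.5 kb, called higher at all 5 times.

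The most accessible region of the stretch, and per kilobase the most accessible of the whole Myh11 gene (10.9 CPM per kb over all libraries), was chr16:14253401-14254604, 37.5 kb into the gene. It held 4.29, 3.01 and 2.16 CPM in fibroblasts. It held 9.60, 10.3 and 10.6 CPM at day 2, 17.7, 15.5 and 12.2 at day 3, 22.3, 21.4 and 15.2 at day 7, 16.8, 13.6 and 14.0 at day 14, and 18.2, 10.6 and 18.2 at day 21. No GMT library overlapped the fibroblasts. The day 2 libraries lay below those of days 3, 7 and 14, while day 2 replicate 3 and day 21 replicate 2 were near equal (10.594 and 10.617 CPM). The region was not called between days 21 and 2. Its fitted log2 fold change was 1.58 ± 0.33 at day 2, 2.13 ± 0.33 at day 3, 2.52 ± 0.32 at day 7, 2.12 ± 0.33 at day 14 and 2.21 ± 0.32 at day 21 (SE). The edgeR adjusted p was 0.000251 at day 2 and 4.95e-09 at day 7, and the call held at every time under all 13 alternatives.

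Its neighbour chr16:14257188-14258117 started from almost nothing. Fibroblasts held 0.0912, 0.925 and 0 CPM, while the day 21 libraries held 3.34, 2.31 and 3.31 CPM. Its log2 fold change was 2.22 ± 0.70 at day 2 and 3.35 ± 0.59 at day 21 (SE, edgeR adjusted p = 0.0159 and 1e-05). Group means at days 2, 3, 7 and 14 lay between 1.56 and 2.11 CPM. Day 2 replicate 2 (0.924 CPM) did not exceed fibroblast replicate 2. Without fibroblast replicate 1 the calls at days 2, 3, 7 and 14 were lost, at adjusted p of 0.303, 0.172, 0.0519 and 0.0513, and without day 2 replicate 3 that at day 2 (0.0507).

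A pair of regions of the stretch was called higher from day 7 on and at neither day 2 nor day 3. Region chr16:14255980-14257029 held 0.503 ± 0.172 CPM in fibroblasts, 0.674 ± 0.0845 at day 2, 1.12 ± 0.318 at day 3, 1.78 ± 0.392 at day 7, 2.55 ± 1.09 at day 14 and 2.49 ± 1.02 at day 21 (SD, n = 3). Region chr16:14264577-14266966 held 1.56 ± 0.530, 2.42 ± 0.535, 2.36 ± 0.317, 5.10 ± 0.921, 4.13 ± 0.619 and 5.68 ± 1.60 CPM in the same order. At the latter, all libraries of days 7, 14 and 21 lay above all of days 2 and 3 and of the fibroblasts. Their log2 fold changes at day 21 were 2.30 ± 0.52 and 1.97 ± 0.36 (SE, edgeR adjusted p = 0.000532 and 2.1e-05). Only the day 7 call of the first was lost without a library, at adjusted p = 0.110 without fibroblast replicate 1.

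Nearer the start, chr16:14281827-14283198 (8.99 kb into the gene) held 0.912, 0.925 and 0.360 CPM in fibroblasts and 4.90, 1.85 and 1.82 CPM at day 21. It was called higher at day 7 (log2 fold change 1.35 ± 0.50) and day 21 (1.77 ± 0.48, SE, edgeR adjusted p = 0.00435). The day 21 value rests on replicate 1, without which it was 1.30 (adjusted p = 0.0908). The day 7 call was lost without day 7 replicate 2 (adjusted p = 0.159) and without fibroblast replicate 1 or 3 (0.106 and 0.0664).

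The only Myh11 region called lower at 3 or more times, chr16:14210536-14212113, lies 80.2 kb into the gene. Fibroblasts held 3.92, 2.78 and 5.40 CPM, and GMT cells held 1.85 ± 0.703, 1.86 ± 0.0675, 1.17 ± 0.171, 1.29 ± 0.570 and 1.17 ± 0.255 CPM at days 2, 3, 7, 14 and 21 (SD, n = 3). All GMT libraries were below all fibroblast libraries. Its log2 fold change was -1.25 ± 0.41 at day 2 and -1.73 ± 0.39 at day 21 (SE, edgeR adjusted p = 0.0222 and 0.000513). The day 3 call was lost without any 1 of the 6 libraries compared (adjusted p 0.0578 to 0.203), and that at day 2 without fibroblast replicate 1 or 3 or day 2 replicate 2 or 3 (0.0836 to 0.267). With library totals in place of TMM the calls at days 2 and 3 were lost, and those at days 7, 14 and 21 were kept. With no filter every call was lost (adjusted p 0.323 to 0.783). A sparser region at 75.4 kb, chr16:14215721-14216576, picked after its values were seen, held 1.30 ± 0.702 CPM in fibroblasts and 0.133 ± 0.148 CPM at day 3 (SD, n = 3). It had larger log2 fold changes, -2.54 ± 0.83 at day 3 and -2.27 ± 0.87 at day 14 (SE, edgeR adjusted p = 0.0192 and 0.0483), and was not called at the other times. Both calls were lost with library totals and without fibroblast replicate 2 (adjusted p 0.208 and 0.322). That at day 3 was also lost without day 3 replicate 1 or 2, and that at day 14 without fibroblast replicate 1 or 3 or day 14 replicate 1 or 3.

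Outside the rule for named regions, 3 further Myh11 regions were picked after their values were seen. They were called higher at 3 or more times and lie at or beyond an end of the gene. At its far end, chr16:14193825-14196180 held 5.11 ± 1.29 CPM in fibroblasts and 10.6 ± 0.295, 12.2 ± 3.60, 11.3 ± 0.760, 9.86 ± 1.75 and 9.52 ± 1.75 CPM at days 2, 3, 7, 14 and 21 (SD, n = 3), called higher each time with log2 fold changes of 0.94 to 1.24. On the Cep20 side, chr16:14303047-14304670, at -12.4 kb from the start, held 6.39 ± 0.871 CPM in fibroblasts, 18.3 ± 9.15 at day 2, 21.7 ± 5.72 at day 3, 20.4 ± 3.25 at day 7, 10.3 ± 1.96 at day 14 and 12.1 ± 2.63 at day 21. It was called at days 2, 3, 7 and 21, with its largest log2 fold change, 1.78, at day 3. On the Nde1 side, chr16:14177627-14179813 held 9.75 ± 2.05 CPM in fibroblasts and 17.1 ± 1.77, 18.4 ± 0.947 and 18.2 ± 2.77 at days 2, 3 and 7, when it was called. Without fibroblast replicate 2, the calls of the first were lost at days 2, 14 and 21 (adjusted p 0.0584 to 0.0917), that of the second at day 21 (0.0520) and all 3 of the third (0.0881 to 0.213). Without fibroblast replicate 1 they were lost for the first at days 14 and 21, for the second at day 21 and for the third at days 2 and 3, and without fibroblast replicate 3 for the third at day 2. GMT libraries that ended a call were day 14 replicate 1 and day 21 replicate 3 for the first, day 21 replicate 3 for the second, and day 2 replicates 2 and 3 and day 7 replicate 3 for the third. Tested regions outside the gene but nearer to it were not picked. Of these, chr16:14296371-14299105 was called higher at day 2 only, chr16:14180248-14181294 at day 7 only, and chr16:14295014-14295671 never.

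The region of highest mean level in the Myh11 window, chr16:14316581-14318172, lies at -25.9 kb from the start, on the Cep20 side and was not called at any time. It held 29.2 ± 3.57 CPM in fibroblasts and 49.2 ± 2.78 at day 7 (SD, n = 3). The day 7 libraries lay above the fibroblasts, but the log2 fold change of 0.75 ± 0.31 (SE) gave an edgeR adjusted p of 0.0623.

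**Figure D2:**
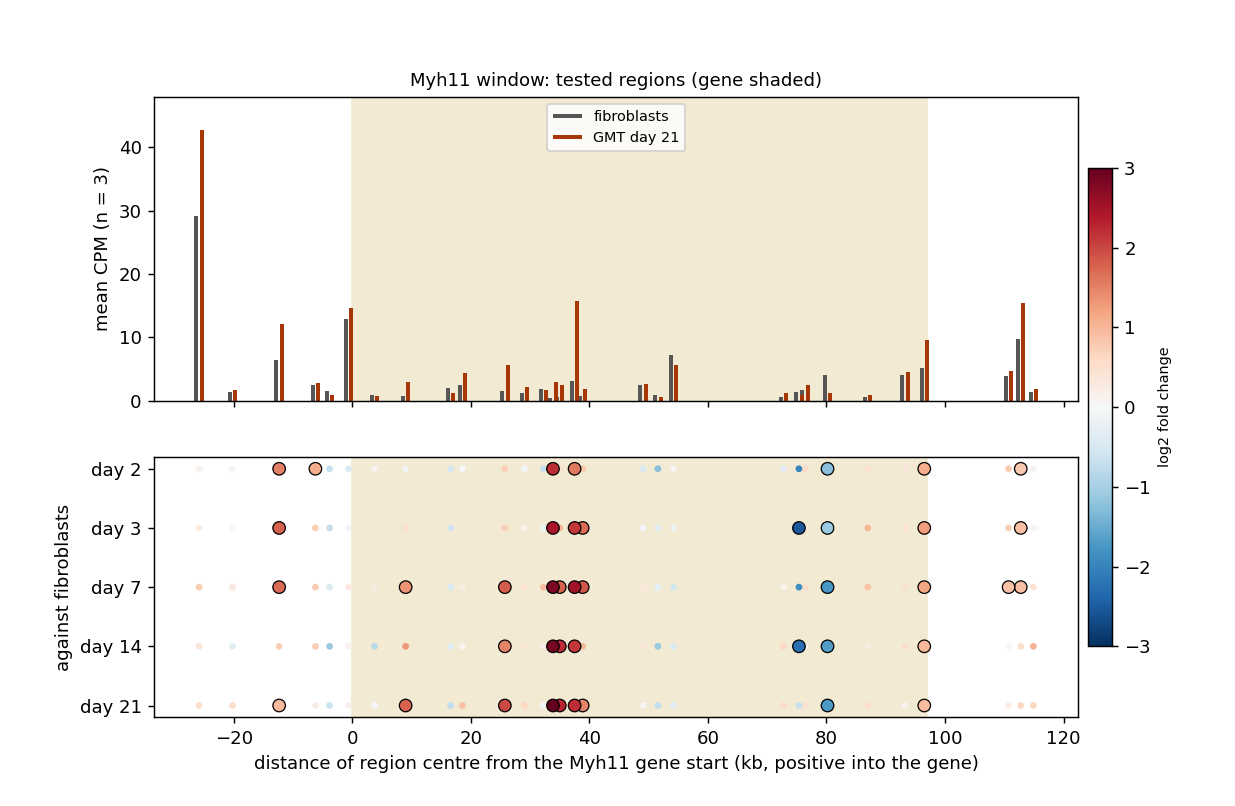
Tested regions of the Myh11 window by distance of their centre from the gene start (kb, x axis; gene shaded). Upper panel, mean CPM of fibroblasts and GMT day 21 (n = 3); lower panel, log2 fold change against fibroblasts at each day (colour), with large outlined circles for called regions and small dots for the rest. The stretch 24.5 to 39.4 kb into the gene, which was bounded by called rises, holds 5 of the 8 regions called higher at 3 or more times. The start region has no outlined circle.

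With TMM scaling and the filter on low counts, Mylk showed rises and falls in near equal number. With library totals in place of TMM, 12 rose and 0 fell at day 2, 9 and 1 at day 3, 7 and 1 at day 7, 8 and 2 at day 14, and 13 and 1 at day 21. With no filter, 2 rose and 0 fell at day 2, and 4 rose and 0 fell at each of days 3 and 7. In that setting 2 rose and 1 fell at day 14, and 5 rose and 0 fell at day 21. With TMM, of 53 tested regions, 4 rose and 4 fell at day 2, 4 and 5 at day 3, 6 and 7 at day 7, 5 and 7 at day 14, and 8 and 6 at day 21. Called higher were 7.55% at days 2 and 3, 11.3% at day 7, 9.43% at day 14 and 15.1% at day 21, close to or below the shares of all tested regions given above for Myh11. Called lower were 7.55%, 9.43%, 13.2%, 13.2% and 11.3% in the same order, the widest gap to all regions being at day 14 (13.2% against 9.70%). Median log2 fold changes were -0.03, -0.01, -0.11, 0.01 and 0.19. Of the 53 regions, 2 were higher and 3 lower at all 5 times and 36 were never called. In all, 10 of the 53 rose and 7 fell at some time, near or below the 21.1% and 17.1% of all tested regions. The 7 that fell lie in the gene body, as do 44 of the 53 tested. The count at day 21, 14, was 7 without fibroblast replicate 1 or 3, 9 without fibroblast replicate 2 or day 21 replicate 1 and 6 without day 21 replicate 3. At day 2 it was 5 and at day 14 it was 7 without fibroblast replicate 1, and at day 7 it was 8 without fibroblast replicate 3.

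Unlike that of Myh11, the main Mylk start region was called higher. Region chr16:34744544-34746789, centred 0.366 kb into the gene, held 8.94, 9.02 and 12.6 CPM in fibroblasts. GMT cells held 15.7, 15.6 and 11.6 CPM at day 2, 10.0, 17.6 and 19.5 at day 3, 23.7, 26.5 and 21.6 at day 7, 18.2, 20.7 and 11.6 at day 14, and 21.0, 16.8 and 26.3 at day 21. All libraries of days 7 and 21 were above the fibroblasts, and those of days 2, 3 and 14 overlapped them. The log2 fold change was 1.26 ± 0.31 at day 7 and 1.10 ± 0.31 at day 21 (SE, edgeR adjusted p = 0.00106 and 0.00486), and 0.52 ± 0.31, 0.68 ± 0.31 and 0.77 ± 0.31 at days 2, 3 and 14, none of them called. The day 7 call held under all alternatives, while that at day 21 was lost without fibroblast replicate 1 (adjusted p = 0.0561) or day 21 replicate 3 (0.0525). Whether the 2 gene starts differ from each other in their change was not tested. A weaker region just before the start, chr16:34743033-34743837, held 0.611 to 1.58 CPM as group means and was never called.

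The largest rise in Mylk was near its far end, at chr16:34990715-34992297, 246 kb into the gene. Fibroblasts held 0.638, 1.62 and 0.721 CPM. GMT cells held 5.44, 4.31 and 3.46 CPM at day 2, 2.90, 4.40 and 5.39 at day 3, 4.42, 3.88 and 5.17 at day 7, 2.78, 3.71 and 5.23 at day 14, and 5.35, 5.39 and 5.90 at day 21. No GMT library overlapped the fibroblasts, and the day 21 libraries lay above those of days 7 and 14 and overlapped those of days 2 and 3. The log2 fold change was 2.22 ± 0.43 at day 2 and 2.59 ± 0.40 at day 21 (SE, edgeR adjusted p = 6.34e-05 and 8.32e-07). It was called at all 5 times and under every alternative.

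Past the end of Mylk, chr16:35015701-35017874 also rose at all 5 times. It held 1.69 ± 0.481 CPM in fibroblasts and 4.80 ± 0.436, 5.76 ± 1.56, 5.10 ± 2.23, 5.17 ± 0.568 and 5.09 ± 1.36 CPM at days 2, 3, 7, 14 and 21 (SD, n = 3). By RefSeq order the next gene on that side is Hacd2, an enzyme of very long chain fatty acid synthesis. The log2 fold change lay between 1.43 ± 0.38 (day 2) and 1.71 ± 0.36 (day 3, SE, edgeR adjusted p = 0.000221). Inside the gene, chr16:34951538-34953695 held 1.14 ± 0.451 CPM in fibroblasts and 2.19 ± 0.863, 2.63 ± 0.634, 2.72 ± 0.191, 3.26 ± 1.30 and 3.11 ± 0.380 CPM. It was called from day 3 on, with 1.40 ± 0.42 at day 21 (SE, adjusted p = 0.0089). Its calls at days 3, 7, 14 and 21 were lost without fibroblast replicate 1 (adjusted p 0.0919 to 0.227). That at day 3 was also lost without fibroblast replicate 3 or day 3 replicate 1 or 3, with DESeq2 (0.0972), RLE size factors (0.0587) and the 2 groups alone (0.0689), that at day 7 with DESeq2 (0.0568) and without day 7 replicate 1, and that at day 14 without day 14 replicate 2.

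Among the falls, chr16:34784276-34785526, 39.6 kb into Mylk, held 2.83, 2.54 and 5.04 CPM in fibroblasts. GMT cells held 0.640, 1.54 and 0 CPM at day 2, 0.791, 0.965 and 1.50 at day 3, 1.12, 1.37 and 0.995 at day 7, 0.793, 0.309 and 0 at day 14, and 1.34, 1.08 and 1.15 at day 21. All 15 lay below all fibroblast libraries. At days 2, 14 and 21 the log2 fold changes were -1.77 ± 0.51, -2.66 ± 0.54 and -1.45 ± 0.46 (SE, edgeR adjusted p = 0.00739, 0.00011 and 0.0143). Fibroblast replicate 3 is the highest, and without it the calls at days 2, 3, 7 and 21 were lost (adjusted p 0.0679 to 0.144). They were also lost at day 2 without day 2 replicate 3, at day 3 without day 3 replicate 1 or 2, and at day 21 without any 1 of its libraries. With library totals in place of TMM the calls at days 2, 3, 7 and 21 were lost as well (0.0505 to 0.159). With no filter the calls at days 2, 3, 7 and 21 were also lost (adjusted p 0.483 to 0.684). The day 14 call held under the 12 alternatives in which it was tested.

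Region chr16:34962135-34963368, 217 kb into the gene, fell more evenly. Fibroblasts held 3.65, 4.40 and 3.96 CPM, and the group means of GMT cells lay between 1.07 ± 0.280 (day 21) and 1.29 ± 0.259 (day 7) CPM (SD, n = 3), with all 15 libraries below the fibroblasts. The log2 fold change lay between -1.61 ± 0.39 at day 7 and -1.89 ± 0.43 at day 14 (SE, edgeR adjusted p = 0.00104 and 0.000499). No call was lost by leaving out a library, while that at day 2 was lost with library totals (0.111). Every call was lost with no filter (adjusted p 0.187 to 0.490). Region chr16:34909182-34910405, 164 kb in, held 1.98 ± 0.472 CPM in fibroblasts and 0.485 ± 0.325 to 0.734 ± 0.214 CPM in GMT cells. It was called lower at days 3, 7, 14 and 21, with a log2 fold change of -2.06 ± 0.54 at day 3 (SE, adjusted p = 0.00311). Those calls were lost at days 7, 14 and 21 without fibroblast replicate 1 or 2, at day 21 also without fibroblast replicate 3 or day 21 replicate 1 or 2, at day 7 without day 7 replicate 1 or 3, at day 14 without day 14 replicate 1 and at day 3 without day 3 replicate 3. All 4 were lost with library totals in place of TMM (adjusted p 0.056 to 0.272).

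The most accessible gene body region of Mylk in fibroblasts, chr16:34924276-34928231 at 181 kb, was added outside the rule, after its values were seen. It held 20.0, 23.1 and 29.9 CPM in fibroblasts and 6.40, 10.7 and 9.57 at day 2. Later GMT means were 10.7 ± 4.51 CPM at day 3, 13.5 ± 0.792 at day 7, 11.8 ± 0.771 at day 14 and 13.6 ± 2.73 at day 21 (SD, n = 3). All GMT libraries were below all fibroblast libraries. Its log2 fold change was -1.39 ± 0.30 at day 2 and -0.82 ± 0.29 at day 21 (SE, edgeR adjusted p = 0.000334 and 0.0286). The day 2 call held without each library in turn. The others were lost without fibroblast replicate 3 (adjusted p 0.0750 to 0.306), at days 7, 14 and 21 without fibroblast replicate 2, at day 3 without day 3 replicate 1, at day 14 without day 14 replicate 3, and at days 7 and 21 without any 1 of the GMT libraries of that day. None of its calls was kept with library totals in place of TMM.

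A fall and a rise lay 800 bases apart, 59.6 and 62.3 kb into Mylk, a pair also picked after its values were seen. Region chr16:34804167-34805675 held 3.81 ± 1.49 CPM in fibroblasts and 2.02 ± 0.253, 2.73 ± 0.381, 1.71 ± 0.797, 1.54 ± 0.114 and 1.93 ± 0.354 CPM at days 2, 3, 7, 14 and 21 (SD, n = 3), and was called lower at days 7, 14 and 21. Region chr16:34806475-34808654 held 2.95 ± 0.256 CPM in fibroblasts and 3.33 ± 1.16, 6.02 ± 2.54, 6.71 ± 1.01, 7.17 ± 1.47 and 7.09 ± 0.394 CPM, and was called higher from day 3 on. From day 7 on every library of the second region exceeded the fibroblasts. Fibroblast replicate 2 of the first, at 2.08 CPM, lay within the GMT range. Its 3 calls were lost without fibroblast replicate 1 (adjusted p 0.162 to 0.343) or 3 (0.0585 to 0.194) and with library totals in place of TMM. They were also lost at day 7 without day 7 replicate 1 or 2, at day 14 without day 14 replicate 2 and at day 21 without any 1 of its libraries. Of the calls of the second region, that at day 3 was lost without fibroblast replicate 1 (0.0630) or day 3 replicate 3 (0.105).

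The highest mean level of the Mylk window was at chr16:35022014-35024267, on the Hacd2 side, and was not called. It held 24.2 ± 1.76 CPM in fibroblasts, 41.0 ± 0.289 at day 7 and 34.2 ± 8.80 at day 21 (SD, n = 3). Replicate 1 of days 2 and 3 gave 9.60 and 10.3 CPM, again far below the other libraries of their groups. The same libraries were low at the Myh11 start but not at chr16:14253401-14254604.

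**Figure D3:**
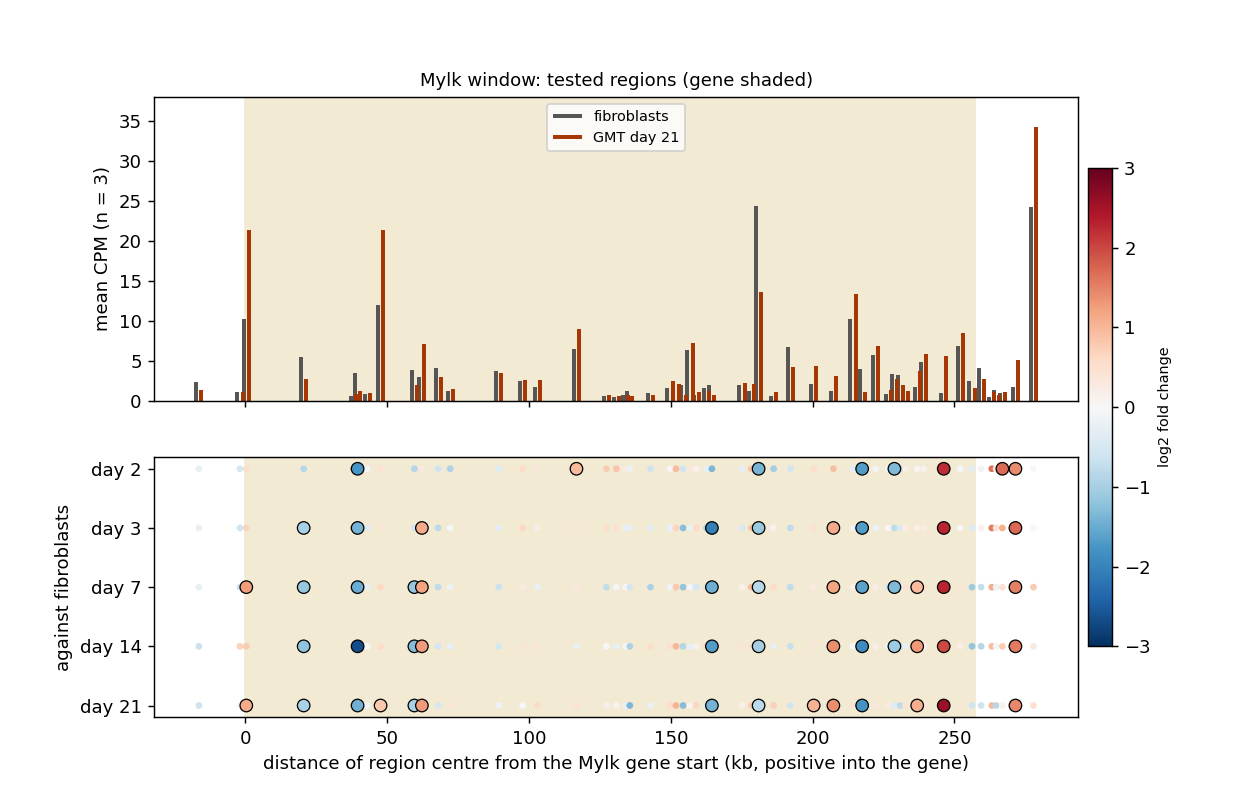
Tested regions of the Mylk window by distance of their centre from the gene start (kb, x axis; gene shaded). Upper panel, mean CPM of fibroblasts and GMT day 21 (n = 3); lower panel, log2 fold change against fibroblasts at each day (colour), with large outlined circles for called regions and small dots for the rest. Called rises and falls are spread along the gene, and all called falls lie inside it.

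Few regions differed within the GMT series. Between days 21 and 2, 3 of 30 Myh11 regions were higher and 0 lower, and 0 of 53 Mylk regions were higher and 1 lower, against 0.572% higher and 0.871% lower of all tested regions. At Myh11 these were chr16:14255980-14257029 (log2 fold change 1.82 ± 0.47), chr16:14264577-14266966 (1.26 ± 0.33) and chr16:14281827-14283198 (1.88 ± 0.48, SE), with edgeR adjusted p of 0.0280, 0.0268 and 0.0243. Their day 2 levels, 0.674 ± 0.0845, 2.42 ± 0.535 and 0.738 ± 0.292 CPM, overlapped the fibroblasts (SD, n = 3). At the first and second, all day 21 libraries lay above all day 2 libraries, as they did at the third. The Mylk region, chr16:35011358-35013012 past the gene end, went the other way. It held 0.912, 1.85 and 0 CPM in fibroblasts, 3.52, 3.39 and 2.85 at day 2, and 1.00, 1.38 and 0.960 at day 21. Its log2 fold change was 1.69 ± 0.48 at day 2 against fibroblasts (edgeR adjusted p = 0.00674) and -1.59 ± 0.42 between days 21 and 2 (SE, adjusted p = 0.0319).

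These 4 calls are fragile. The 3 Myh11 calls were each lost without day 2 replicate 2 or 3 or day 21 replicate 1 (adjusted p 0.112 to 0.413), and the first also without day 2 replicate 1 and the first and second without day 21 replicate 3. The Mylk call was lost without any 1 of the 6 libraries (0.0553 to 0.194). All 4 missed the threshold with library totals in place of TMM.

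**Figure D4:**
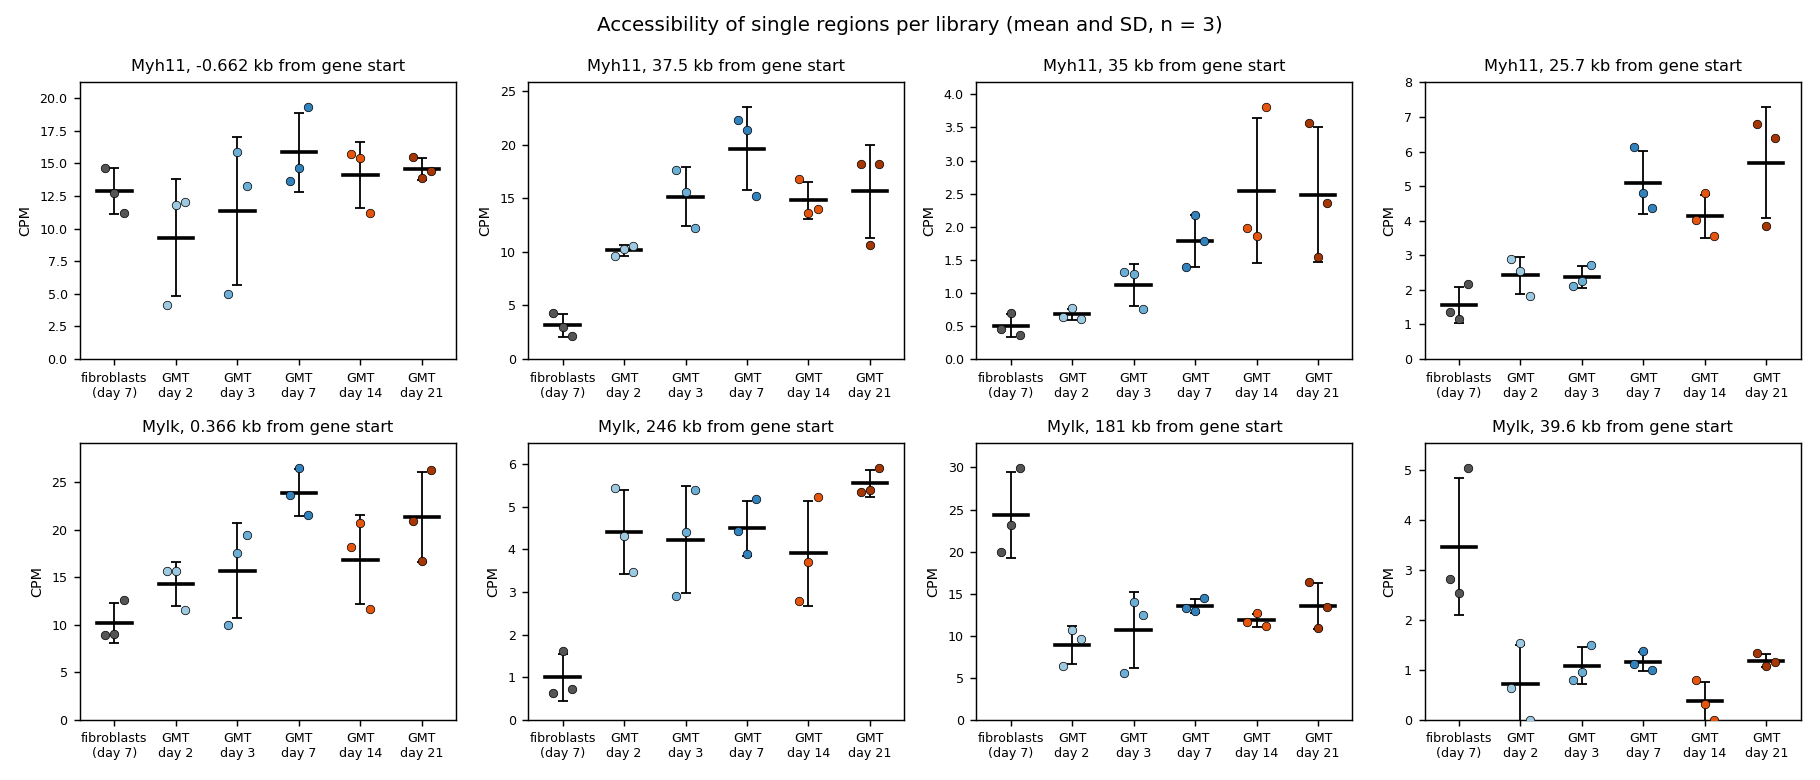
Accessibility (CPM, y axis) of 8 regions per library, by group on the x axis, with 4 Myh11 regions above and 4 Mylk regions below, each named by its distance from the gene start. Points are libraries, thick lines means and bars SD (n = 3). The Myh11 region at 37.5 kb and the Mylk region at 246 kb are higher, and the Mylk regions at 181 and 39.6 kb lower, in all 15 GMT libraries than in fibroblasts.

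The regions most like each gene start over the 18 libraries were sought outside both windows, among 144727 tested regions, by Pearson's r of log2 CPM, as a description only, since the libraries share depth and scaling. For the Myh11 start these were chr15:103152369-103155101 (r = 0.972), chr13:95638046-95639437 (0.968) and chr11:117829061-117831679 (0.968). Without replicate 1 of days 2 and 3 the values were 0.781, 0.736 and 0.775, so this likeness rests largely on those libraries. For the Mylk start they were chr11:86356860-86359515 (r = 0.943), chr1:135118765-135120164 (0.936) and chr13:93913581-93915231 (0.934), and 0.944, 0.928 and 0.940 without those libraries. The gene starts of Myh11 and Mylk correlated with each other at r = 0.400.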

How the data were processed

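The authors deposited whole-number read counts per region for 18 of 36 labelled samples. Per the submitters' processing notes the tools were Bowtie2, Picard, MACS2 and edgeR and the build was mm9. Not given in the sources used here: versions, peak calling settings, duplicate removal and the transposase offset. The table's last line was incomplete and left out, which left 1393120 regions on part of the genome. Starts and ends are as the deposited table gives them.

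Counts were fitted with edgeR 4.0.16 (R 4.3.3): filterByExpr (minimum count 10, minimum total 15), TMM, and 1 robust quasi-likelihood fit (glmQLFit, glmQLFTest, two-sided) with a mean for each of 6 groups, which left 12 residual degrees of freedom. Benjamini-Hochberg adjustment ran over all 144810 tested regions. Log2 fold changes are edgeR's shrunken values. The SE given with each is its absolute value over the square root of the quasi-likelihood F statistic. It is thus an approximation taken back from the test, and is least sure for regions near 0 CPM. CPM of a region or of a window sum is its count over the effective library size, and 1 count was worth 0.0418 to 0.360 CPM. The common biological coefficient of variation was 23.8%. Window sums were compared on log2 CPM by an exact permutation test. The fit was also run on counts simulated from its own model, with independent libraries. Such counts cannot show whether that model holds for these libraries, and no conclusion is drawn from them. Intervals and errors cover these samples only, and p-values measure the spread between libraries.

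Regions within 1500 bases of a gene end taken as its start count as gene start. Mylk's strand follows RefSeq, and Myh11 was taken as transcribed towards lower coordinates. Named by rule were, per locus, gene start regions, the highest mean CPM, the 3 largest mean rises and falls among regions called at 3 or more of 5 times, and regions called between days 21 and 2. The loci and lists were chosen with earlier results of these data known. Alternatives were DESeq2 1.42.0, RLE size factors, library totals alone, no filter, an adjusted p of 0.01, the 2 groups alone, the gene without flanks, a replicate block, leaving out each library, and leaving out 3 libraries reported to stand apart (replicate 1 of days 2 and 3, replicate 3 of day 14). Marker lists could not be placed without an mm9 annotation and were not analysed here. Gene neighbours and promoter sequence came from RefSeq (GRCm38.p6), of which only names, order, strand and the printed sequence with its position were used.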

Additional observations from a re-analysis of the deposited data

Results flagged for a closer look

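The change against fibroblasts differed between days 21 and 2 at 4 regions by a direct test of both times. At Myh11, the log2 fold change of day 21 over day 2 was 1.82 at chr16:14255980-14257029, 1.26 at chr16:14264577-14266966 and 1.88 at chr16:14281827-14283198. At Mylk, chr16:35011358-35013012 gave -1.59. Each was called by edgeR and lost when single libraries were left out, as given in the report. At the third Myh11 region, day 21 replicate 1 held 4.90 CPM against 1.85 and 1.82 CPM in the other two, and the part of that library in the result is the value without it, 1.30.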

How the results depend on the processing

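Of 102 calls of single regions, recomputed 1319 times over 25 alternatives, 1015 kept the call, 304 kept the direction only and 0 reversed. Of the calls, 28 held throughout. No filter lost 63 of 102, library totals alone 32 of 102, fibroblast replicate 1 left out 39 of 98, day 21 replicate 3 left out 14 of 27, day 21 replicate 1 left out 12 of 27, and day 2 replicate 2 or 3 left out 9 of 19 each. With no filter, called regions numbered 2, 5, 3 and 5 at Myh11 at days 2, 3, 14 and 21, and 2, 4, 4, 3 and 5 at Mylk at days 2, 3, 7, 14 and 21, and none between days 21 and 2 (0 at each locus). That setting tests more regions, and log2 fold changes also moved up in it, for lost rises and lost falls alike. At chr16:14177627-14179813 at day 2 the value was 1.15 with no filter and 0.816 as reported. At chr16:34909182-34910405 at day 3 it was -1.55 with no filter and -2.06 as reported. How much of the loss goes with either difference was not tested. At an adjusted p of 0.01 they numbered 3 and 4 at Myh11 at days 2 and 3, 7 and 6 at Mylk at days 7 and 21, and 0 between days 21 and 2 at each locus. With library totals alone, Mylk had 8 at day 7, neither locus had any between days 21 and 2 (0), and the Mylk sum differed by 0.48 (exact permutation p = 0.02696). For gene regions alone, Myh11 had 4 at day 2, Mylk 0 between days 21 and 2, and the Mylk sum difference turned to -0.021. These alternatives test fewer regions, another threshold or another scale, and the cause was not tested further.

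Leaving out 1 library gave 3 to 7, 4 to 8, 7 to 12, 4 to 8 and 6 to 11 called Myh11 regions at days 2, 3, 7, 14 and 21, and 0 to 3 between days 21 and 2. At Mylk it gave 5 to 8, 6 to 10, 8 to 11, 7 to 11 and 6 to 10, and 0 between days 21 and 2. For the sums, only the 3 fibroblast libraries were left out in turn, which gave 0.40 to 0.44 at Myh11 and 0.02 to 0.10 at Mylk.

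Replicate numbers did not pair the libraries across all groups. Same-numbered libraries deviated together (r over 0.1) in 2 of 45 pairs, and 4 of 18 libraries correlated best with their own number. Both pairs were of days 2 and 3, with r = 0.321 for replicate 1 and 0.214 for replicate 2. Replicate 3 of those days gave 0.098. The block below spans all 6 groups and does not test a pairing of days 2 and 3 alone. With the replicate block, called regions numbered 7, 8, 11, 7, 9 and 3 at Myh11 and 9, 9, 12, 12, 14 and 1 at Mylk, for days 2, 3, 7, 14 and 21 and for days 21 against 2. No count moved by over 1.5 times. The block lost the calls of chr16:14215721-14216576 at day 14 (adjusted p = 0.0533), chr16:34951538-34953695 at day 3 (0.060) and chr16:34981037-34983278 at day 7 (0.0539). In the library of smallest effective size, fibroblast replicate 3, 1 count was worth 0.360 CPM, which limits regions under about 1 CPM.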
